A study of Mus musculus with 16 samples.

Results

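Chemokines are small secreted proteins that guide cells carrying matching G-protein-coupled receptors. They are named CC or CXC after the spacing of their conserved cysteines. In the healthy brain Cxcl12 and its receptor Cxcr4 position migrating neurons and interneurons, while inflammatory ligands such as Ccl2, Ccl3 and Cxcl10 are released mainly by activated glia. The cytokines Il1a, Il1b, Il6, Il18 and Tnf are classic inflammatory mediators, and Tgfb1 is a growth factor with dampening effects on microglia.

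The genes described here are rows of the deposited hippocampal count table whose symbol starts with Ccl, Cxcl, Ccr or Cxcr and a digit, with Il1a, Il1b, Il6, Il18, Tnf and Tgfb1 added. The 67 rows reported, of 49315 in the table, had 62 distinct symbols and comprised 32 CC ligand rows, 13 CXC ligand rows, 16 receptor rows and 6 cytokines. Only 17 rows reached 10 counts in at least 4 of 16 libraries, 14 rows had no count in any library and 36 lay in between. The rule did not use any difference between groups.

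RNA was sequenced from mouse hippocampus in 16 samples, 4 in each of 4 groups. Wild type mice on the standard diet are called WT-SD and Kcna1 knockouts fed the same way KO-SD, while the groups fed a ketogenic diet are called WT-KD and KO-KD. Kcna1 encodes a potassium channel subunit of axons whose loss causes seizures in mice, and a ketogenic diet is rich in fat and poor in carbohydrate. The allele, strain, age, sex and duration of the diet are not given in the sources used here, nor whether a library came from 1 animal or from a pool, so p-values measure the spread between libraries.

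Libraries are named by the animal tag of their column. Total counts ranged from 13440230 to 22309504. Kcna1 was at 107 to 130 counts per 1000000 (CPM) in the 8 wild type libraries and at 43.4 to 47.2 CPM in 7 of the knockout libraries. The library labelled KO-SD KC888LL held 82.0 CPM, so each comparison that uses that group was also made without it. A pair of libraries stood apart in immune cell markers. The summed level of 14 microglia markers (such as P2ry12, Csf1r and C1qa) was 617 CPM in KC872RL and 619 CPM in KC873RR, both KO-SD, and 267 to 322 CPM in the other 14 libraries. These 2 libraries also expressed Y-linked genes, as 1 wild type library on each diet did, and no KO-KD library. Where both were left out, KO-SD held only KC888LL and KC893RL. Hippocampal neuron markers (Prox1, Calb1, Wfs1, Neurod6, Snap25 and Rbfox3) summed to 2195 to 3092 CPM. In bulk tissue, fewer cells of a type and less RNA per cell cannot be told apart.

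Few of these genes were abundant. The levels per length, in CPM per kb of annotated exons and averaged over the 16 libraries, were led by the CXC ligand Cxcl14, which hippocampal interneurons are known to express, at 47.8. Next came the cytokine Il18 at 14.2, Cxcl12 at 7.63, its receptor Cxcr4 at 2.71, Ccl25 at 1.95, Ccl27a at 1.87, Ccl17 at 1.63 and Tgfb1 at 0.999. The other 9 lay between 0.659, for Ccr6, and 0.0387, for Ccr9. Over single libraries, only Cxcl14 was separated from its neighbour in this order, Il18. In each of the 15 other neighbouring pairs the ranges of the libraries overlapped. Exon lengths are unions over annotated transcripts, so a gene with long rare transcripts is understated.

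**Figure D1:**
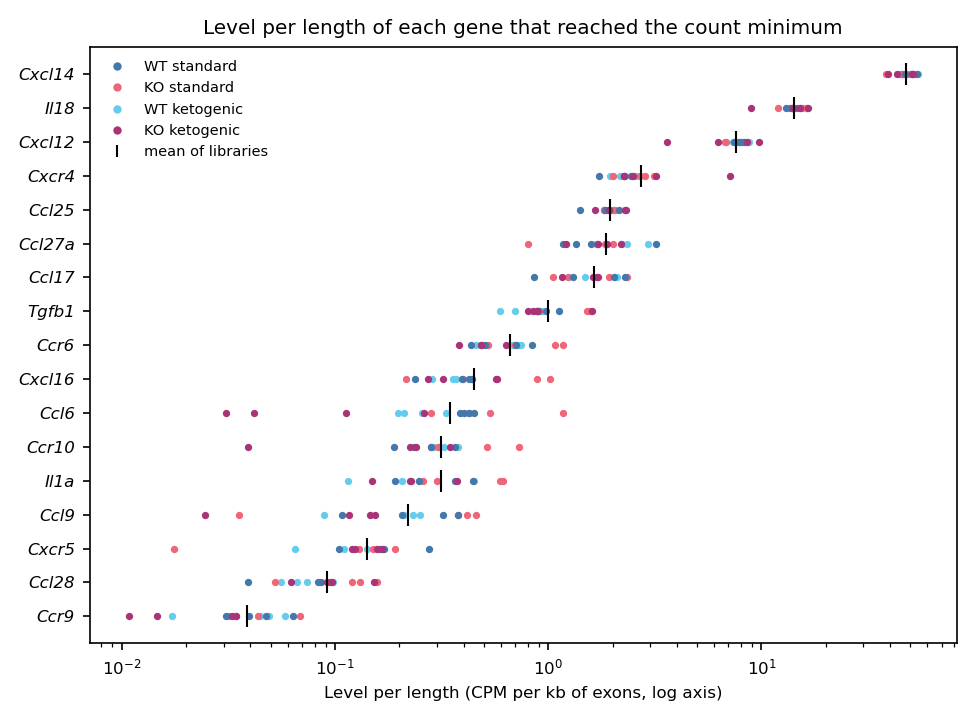
Level per length of the 17 genes that reached the count minimum, in CPM per kb of exons on a log axis, with 1 point for each of the 16 libraries coloured by group and a bar at the mean. Cxcl14 lies highest at 47.8 and Ccr9 lowest at 0.0387, and the points of most neighbours overlap.

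The level of some of these genes is uncertain because the use of strand in counting is not given in the sources used here. Exons of Cxcl16 share 552 bases with exons of Zmynd15 on the opposite strand, those of Ccl25 share 204 bases with Elavl1, those of Cxcr5 share 110 bases with Bcl9l and those of Il1a share 222 bases with Gm14023. Of the 10260 exon bases of Ccr9, 1932 are shared with AC165425.1 and 22 with Slc6a20a on the opposite strand, and 269 with Gm17200 on the same strand. Copies of Ccl19, Ccl21 and Ccl27 lie on chromosome 4 and on unplaced scaffolds, so reads of Ccl27a could have been divided among copies or dropped.

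Among the CC ligands Ccl6 and Ccl9 are neighbours on chromosome 11 (GRCm38), Ccl6 at 83587882 to 83593087 and Ccl9 at 83572919 to 83578636, both on the minus strand. They are myeloid chemokines, and the gene of the inflammatory ligand Ccl3 lies 54757 bases beyond Ccl6. Their promoters are shown because Ccl6 was the 1 gene of the family called, Ccl9 is its neighbour and Ccl3 was detected almost only in the pair of libraries rich in microglia markers. Each runs from 250 bases before to 50 bases after the start site in RefSeq on GRCm38.p6, minus strand, 5′ to 3′, and capitals mark matches to the motifs named below.

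Ccl6, chr11:83593038-83593337: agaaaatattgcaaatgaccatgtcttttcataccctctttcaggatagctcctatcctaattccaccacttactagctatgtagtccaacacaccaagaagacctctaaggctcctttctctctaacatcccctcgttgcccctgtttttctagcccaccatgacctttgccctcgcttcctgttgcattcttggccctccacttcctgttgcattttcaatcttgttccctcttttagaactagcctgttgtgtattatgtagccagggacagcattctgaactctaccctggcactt
Ccl9, chr11:83578587-83578886: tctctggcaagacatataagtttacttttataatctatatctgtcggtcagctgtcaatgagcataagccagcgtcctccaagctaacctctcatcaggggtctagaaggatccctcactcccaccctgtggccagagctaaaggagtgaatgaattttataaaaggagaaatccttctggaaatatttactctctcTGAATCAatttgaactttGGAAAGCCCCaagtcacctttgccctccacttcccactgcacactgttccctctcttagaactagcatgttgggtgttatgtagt
Ccl3, chr11:83649329-83649628: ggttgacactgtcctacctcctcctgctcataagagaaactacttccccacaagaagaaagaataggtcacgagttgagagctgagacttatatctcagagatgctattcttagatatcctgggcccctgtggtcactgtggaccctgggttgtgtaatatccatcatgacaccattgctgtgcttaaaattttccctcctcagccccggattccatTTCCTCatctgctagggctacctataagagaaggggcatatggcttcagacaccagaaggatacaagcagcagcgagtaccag

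The promoters of Ccl6 and Ccl9 resembled each other around the start site. A local alignment covered 74 columns with 59 identical bases (79.7%) and 7 gap columns, and its longest shared run was the 13 bases gccctccacttcc. The longest run that either shared with Ccl3 was 8 bases. Searched on both strands were the PU.1 core GAGGAA, the AP-1 motif TGANTCA, the STAT motif TTCNNNGAA and the NF-kB motif GGGRNNYYCC. Here R is A or G, Y is C or T and N is any base. Of the 32851 promoters of this length in the table, 28.3% held the PU.1 core, 7.81% the AP-1 motif, 8.30% the STAT motif and 8.46% the NF-kB motif. Ccl9 held an AP-1 match from 53 bases before the start, with sequence TGAATCA. It also held an NF-kB match on the opposite strand from 35 bases before the start. Ccl3 held the PU.1 core on the opposite strand. The Ccl6 window held none of these motifs.

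Ccl6 (ENSMUSG00000018927), a CC ligand made by macrophages and microglia, was lower in KO-KD than in KO-SD. Its levels in KO-SD were 0.956 CPM in KC872RL, 2.10 in KC873RR, 0.757 in KC888LL and 0.507 in KC893RL. In KO-KD they were 0.201 CPM in KC913RR, 0.0748 in KC916RRL, 0.0552 in KC934R and 0.470 in KC935LL, from 3, 1, 1 and 8 counts. The groups did not overlap, although the gap between KC893RL and KC935LL was narrow. The log2 fold change was -2.36 ± 0.52 (SE) (edgeR, adjusted p = 0.0342), and Ccl6 was the 1 gene called among the 15 of this family that were tested. Over all 17469 tested genes 1.16% were called in this comparison.

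In wild type the same diet gave lower Ccl6 values that also did not overlap. They were 0.691 to 0.808 CPM in WT-SD (0.746 ± 0.0515, SD, n = 4) and 0.354 to 0.592 CPM in WT-KD (0.445 ± 0.107, SD, n = 4). The log2 fold change of -0.72 ± 0.47 (SE) did not pass the threshold (edgeR, adjusted p = 0.977). Over all tested genes 2.42% were lower without overlap between the diets in wild type, and 3.72% in the knockout. The test of the difference between the diet's effects in the 2 genotypes gave -1.65 ± 0.72 (SE) for Ccl6 (edgeR, unadjusted p = 0.0337, adjusted p = 0.654), which became -0.89 without both KC872RL and KC873RR, -1.01 with the level of Xist as a covariate and -2.52 without KC935LL. Ccl6 differed by 0.53 ± 0.43 (SE) in KO-SD against WT-SD and by -1.11 ± 0.57 (SE) in KO-KD against WT-KD (edgeR, adjusted p = 0.611 and 0.570). The first of these values was 0.14 with the Xist covariate, 0.33 by limma-voom, 0.0079 without KC873RR and -0.22 without both KC872RL and KC873RR. It was 0.67 without KC888LL and 0.76 without KC893RL. The second value was -1.98 without KC935LL and -0.77 without KC934R.

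The call for Ccl6 rested on few counts and was lost when any 1 of 5 libraries was left out. The log2 fold change was then -2.42 without KC872RL, -1.84 without KC873RR, -2.36 without KC913RR, -2.13 without KC916RRL and -2.02 without KC934R (edgeR, adjusted p = 0.0968, 0.135, 0.0788, 0.0791 and 0.0710). The call was kept without KC888LL, KC893RL or KC935LL, at -2.50, -2.59 and -3.24 (edgeR, adjusted p = 0.0134, 0.0256 and 0.0117). Without both KC872RL and KC873RR the log2 fold change was -1.61 (adjusted p = 0.703), an alternative chosen after seeing the data in which 0.0112% of all genes were called. It was -1.84 (edgeR, adjusted p = 0.270) with the level of Xist as a covariate and -1.61 (edgeR, adjusted p = 0.740) in the libraries with Xist and without the Y-linked gene Ddx3y. In the knockout these are the libraries left without KC872RL and KC873RR, so both fits of -1.61 rest on the same libraries. Over 18 alternatives the log2 fold change stayed below 0, from -3.24 to -1.61. Markers of other cell types also differed in KO-KD against KO-SD. All 14 microglia markers were lower, with a median log2 fold change of -0.76 and Itgam called (-1.14, edgeR, adjusted p = 0.0483). The microglia sum was 267 to 286 CPM in KO-KD and 299 to 619 CPM in KO-SD. The sum of 5 blood genes (globins and Alas2) was 17.4 to 32.5 CPM against 65.8 to 113 CPM, with 4 of the 5 called. Choroid plexus markers summed to 32.4 to 53.1 CPM in KO-KD and 47.4 to 553 CPM in KO-SD, with 5 of 6 lower (median -2.71) and none called, and all 6 hippocampal neuron markers were higher (median 0.25) with none called. Neutrophil and monocyte markers summed to at most 1.03 and 3.17 CPM in any library. The part of these cells in the Ccl6 difference was not tested.

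**Figure D2:**
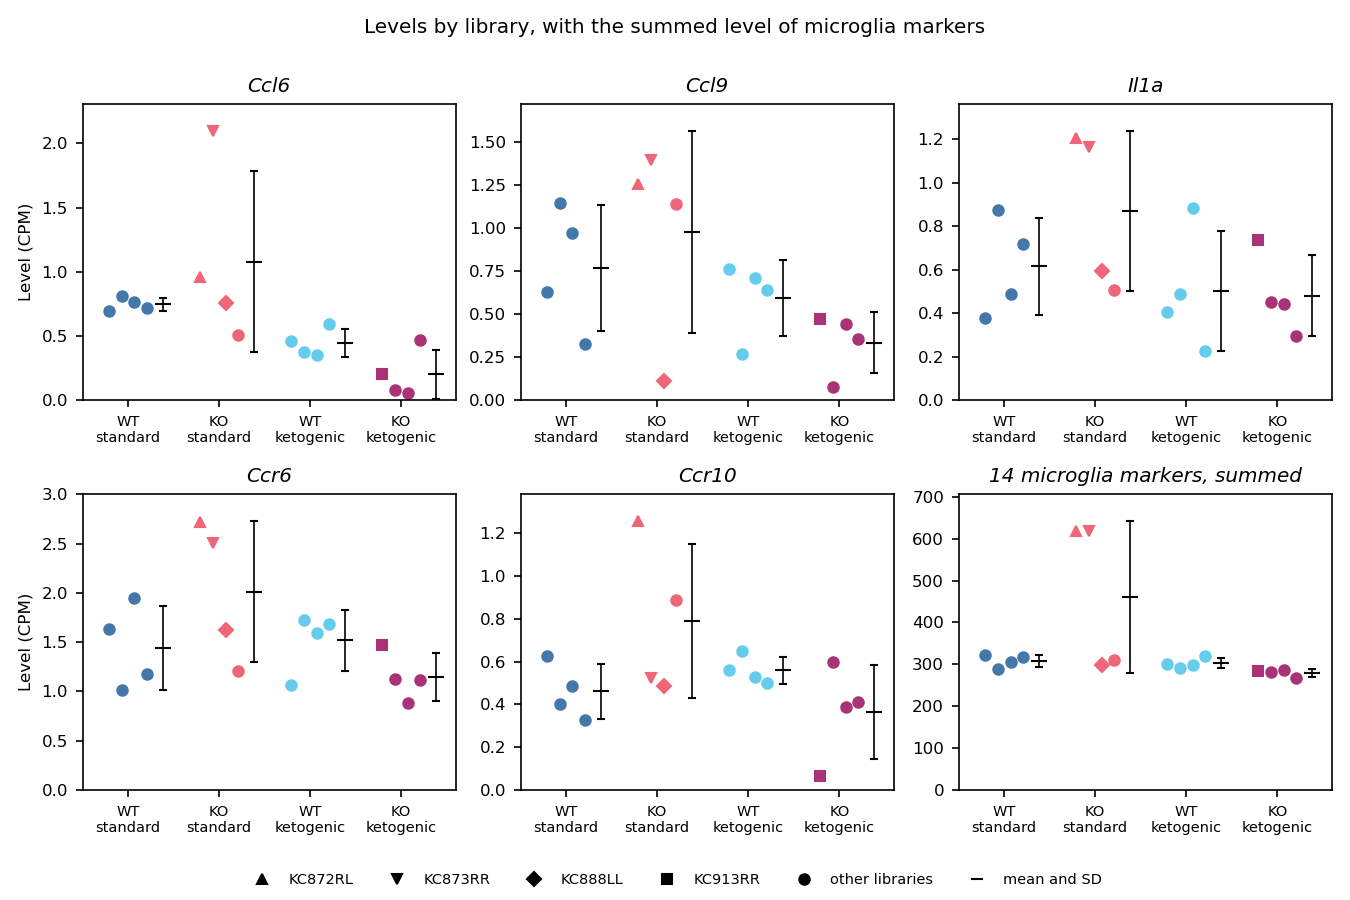
Levels in CPM (vertical axes) of Ccl6, Ccl9, Il1a, Ccr6 and Ccr10 and the summed level of 14 microglia markers, with 1 point per library in each group and the mean with its SD beside them. KC872RL and KC873RR carry the highest microglia sums, 617 and 619 CPM, and the highest Il1a, and the mean of Ccl6 is lowest in KO-KD.

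Ccl9, the neighbour of Ccl6, was not called in any comparison of all 16 libraries. In KO-SD it measured 1.26 CPM in KC872RL, 1.40 in KC873RR, 0.108 in KC888LL and 1.14 in KC893RL. In KO-KD it measured 0.468 CPM in KC913RR, 0.0748 in KC916RRL, 0.442 in KC934R and 0.352 in KC935LL. KC888LL lay among the ketogenic values, so the groups overlapped. The log2 fold change was -1.48 ± 0.58 (SE) (edgeR, adjusted p = 0.205). Over the 8 fits without 1 library of these groups it ranged from -1.86 to -1.20. Without KC888LL it was -1.86 (adjusted p = 0.0249), in a fit that called 6.18% of all genes. Without both KC872RL and KC873RR it was -0.80 (edgeR, adjusted p = 0.907). The libraries with Xist and without Ddx3y, which are the same ones in the knockout, also gave -0.80. With the Xist covariate it was -1.12 (edgeR, adjusted p = 0.573). The range was 0.327 to 1.14 CPM in WT-SD and 0.270 to 0.762 CPM in WT-KD.

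None of the remaining CC ligands that reached the minimum was called. Ccl25, best known as a thymic and gut chemokine, lay between 10.4 and 17.1 CPM in all 16 libraries. Its group means were 13.6 ± 2.32 CPM in WT-SD, 14.3 ± 0.948 CPM in KO-SD, 14.9 ± 1.40 CPM in WT-KD and 15.2 ± 2.33 CPM in KO-KD (SD, n = 4 each). The 95% interval of its log2 difference between diets in the knockout was -0.19 to 0.36. Ccl27a, a ligand of Ccr10, ranged from 1.90 CPM in KC893RL to 7.64 CPM in KC900RLL, a WT-SD library. Its group means were 4.35 ± 2.23 CPM in WT-SD, 3.77 ± 1.28 in KO-SD, 5.46 ± 1.24 in WT-KD and 4.16 ± 0.985 in KO-KD (SD, n = 4 each). Ccl17, a ligand of Ccr4, lay between 0.440 and 1.21 CPM, and Ccl28, the other ligand of Ccr10, between 0.188 and 0.757 CPM. None of these 4 genes had an unadjusted p under 0.05 in any comparison.

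Among the receptors, Ccr6, which binds Ccl20, and Ccr10 were measured at low counts. In KO-SD Ccr6 measured 2.72 CPM in KC872RL, 2.51 in KC873RR, 1.62 in KC888LL and 1.21 in KC893RL. In KO-KD it measured 1.47 CPM in KC913RR, 1.12 in KC916RRL, 0.884 in KC934R and 1.12 in KC935LL. KC893RL fell below KC913RR, so the groups overlapped. The difference was -0.82 ± 0.29 (SE) on the log2 scale (edgeR, adjusted p = 0.164), -0.46 with the Xist covariate and -0.31 without KC872RL and KC873RR (adjusted p = 0.602 and 0.915), the highest pair. It was -0.91 without KC888LL and -0.996 without KC893RL (edgeR, adjusted p = 0.0898 and 0.103). The range was 1.01 to 1.95 CPM in WT-SD and 1.07 to 1.73 CPM in WT-KD.

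Ccr10 measured 1.26 CPM in KC872RL, 0.524 in KC873RR, 0.487 in KC888LL and 0.888 in KC893RL, the KO-SD libraries. In KO-KD it measured 0.0669 CPM in KC913RR, 0.598 in KC916RRL, 0.387 in KC934R and 0.411 in KC935LL, and the groups overlapped. The difference was -1.11 ± 0.43 (SE) (edgeR, adjusted p = 0.203). It was -0.785 without KC913RR, -0.775 without KC872RL, -1.28 without KC888LL and -1.40 without KC916RRL. WT-SD held 0.327 to 0.628 CPM and WT-KD 0.501 to 0.648 CPM. Cxcr5, the receptor for Cxcl13, and Ccr9, the receptor for Ccl25, reached 10 counts in at least 4 libraries but stayed below the filter of the fit. Cxcr5 lay between 0.0583 and 0.915 CPM and Ccr9 between 0.110 and 0.699 CPM.

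Cxcl12 and Cxcr4, the constitutive ligand and receptor of the brain, lay at opposite ends of their ranges in 1 library. Cxcl12 (chromosome 6, 117168535 to 117181367) measured 29.6 CPM in KC913RR, a KO-KD library, and 79.5 CPM in KC916RRL, 51.2 in KC934R and 69.9 in KC935LL, the others of that group. The 12 libraries of the other groups lay between 55.4 and 71.6 CPM. KC913RR was thus the lowest of all 16 libraries and KC916RRL the highest. Group means were 64.3 ± 2.93 CPM in WT-SD, 60.2 ± 5.48 in KO-SD, 67.5 ± 5.05 in WT-KD and 57.5 ± 22.1 in KO-KD (SD, n = 4 each). No comparison of Cxcl12 had an unadjusted p under 0.05.

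Cxcr4 (chromosome 1, 128588199 to 128592293) measured 12.8 CPM in KC913RR, 4.11 in KC916RRL, 5.80 in KC934R and 4.52 in KC935LL. In KO-SD it measured 5.68 CPM in KC872RL, 5.13 in KC873RR, 3.62 in KC888LL and 4.88 in KC893RL, and in wild type 3.14 to 4.64 CPM over both diets. KC913RR was the highest of all libraries. The log2 difference of KO-KD against WT-KD was 0.75 ± 0.28 (SE) (edgeR, unadjusted p = 0.0146, adjusted p = 0.447), and 0.26 without KC913RR. The atypical receptor Ackr3, which also binds Cxcl12, ranged from 11.1 to 16.9 CPM and was at 15.8 CPM in KC913RR.

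**Figure D3:**
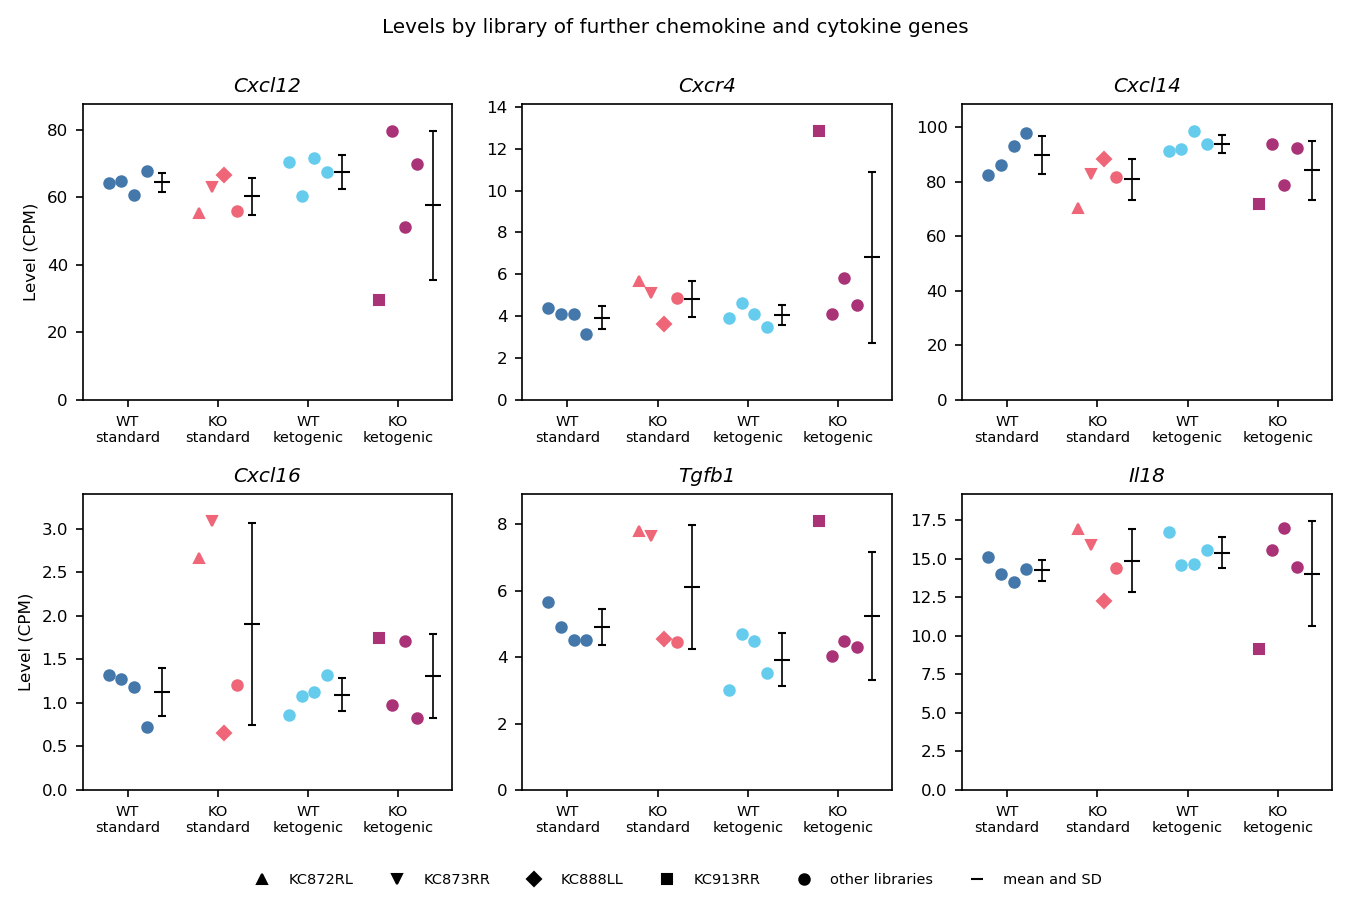
Levels in CPM (vertical axes) of Cxcl12, Cxcr4, Cxcl14, Cxcl16, Tgfb1 and Il18, with 1 point per library in each group and the mean with its SD beside them. KC913RR has the lowest Cxcl12 and Il18 and the highest Cxcr4 and Tgfb1, while KC872RL and KC873RR have the highest Cxcl16.

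Cxcl14 (chromosome 13, 56288643 to 56296551) varied little between libraries. Its group means were 89.9 ± 6.996 CPM in WT-SD, 80.9 ± 7.56 in KO-SD, 94.0 ± 3.28 in WT-KD and 84.2 ± 10.7 in KO-KD (SD, n = 4 each). The lowest library was KC872RL at 70.4 CPM, followed by KC913RR at 71.9 CPM, and the highest was KC844RR at 98.7 CPM. On the log2 scale KO-SD differed from WT-SD by -0.15 ± 0.08 (SE) and KO-KD from WT-KD by -0.16 ± 0.08 (SE) (edgeR, adjusted p = 0.420 and 0.573). The 95% intervals reached from -0.34 to 0.03 and from -0.34 to 0.02. The first difference was -0.089 without KC872RL and -0.20 without KC888LL. The second was -0.089 without KC913RR and -0.22 without KC916RRL.

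Cxcl16, a membrane-bound ligand of Cxcr6 made by microglia and endothelium, measured 2.67 CPM in KC872RL and 3.09 CPM in KC873RR. The other 14 libraries lay between 0.649 CPM, in KC888LL, and 1.74 CPM, in KC913RR. The log2 difference of KO-SD against WT-SD was 0.76 ± 0.39 (SE) (edgeR, adjusted p = 0.393), 0.22 with the Xist covariate, 0.44 without KC873RR alone and -0.29 without both KC872RL and KC873RR. Without KC888LL it was 1.04 (edgeR, adjusted p = 0.0785), in a fit that called 5.73% of all genes.

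Of the cytokines, Tgfb1 (chromosome 7, 25687002 to 25705077) was high in 3 knockout libraries. It measured 7.80 CPM in KC872RL, 7.63 in KC873RR, 4.54 in KC888LL and 4.44 in KC893RL, all KO-SD. In KO-KD it measured 8.09 CPM in KC913RR, 4.04 in KC916RRL, 4.48 in KC934R and 4.29 in KC935LL. Wild type ranged from 3.00 to 5.65 CPM, below these 3 libraries and across the other 5 knockout libraries. On the log2 scale KO-SD differed from WT-SD by 0.32 ± 0.24 (SE) and KO-KD from WT-KD by 0.42 ± 0.24 (SE) (edgeR, adjusted p = 0.572 and 0.609). The first difference was 0.18 without KC872RL, 0.20 without KC873RR, -0.13 without both and 0.13 with the Xist covariate. It was 0.43 without KC888LL and 0.45 without KC893RL. The second difference was 0.13 without KC913RR and 0.52 without KC843RL.

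Il18, a cytokine matured by caspase 1, measured 9.17 CPM in KC913RR and 12.3 to 17.0 CPM in the other 15 libraries. Its group means were 14.3 ± 0.693 CPM in WT-SD, 14.9 ± 2.03 in KO-SD, 15.4 ± 1.01 in WT-KD and 14.05 ± 3.42 in KO-KD (SD, n = 4 each), and no comparison had an unadjusted p under 0.05. Il1a measured 1.21 CPM in KC872RL and 1.17 CPM in KC873RR, and 0.228 to 0.884 CPM elsewhere. Its log2 difference with the diet in the knockout was -0.87 ± 0.43 (SE) (edgeR, adjusted p = 0.318), -0.22 without KC872RL and KC873RR and -1.01 without KC888LL. Il1b, Il6 and Tnf stayed under the minimum, with 37, 3 and 13 counts over all 16 libraries.

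Taking the 15 tested genes by comparison, none was called between knockout and wild type on either diet, between diets in wild type, in the interaction or in the test of any difference among the groups. These are counts by edgeR at an adjusted p under 0.05. Over all genes 0.00572%, 0.0172%, 0.0114%, 0% and 0.595% were called in the same comparisons. At an unadjusted p under 0.05, 0 genes passed in KO-SD against WT-SD and 1 in KO-KD against WT-KD (Cxcr4). With the diet 4 passed in the knockout (Ccl6, Ccr6, Ccr10 and Ccl9, all lower) and 0 in wild type. The interaction gave 3 (Ccl6, Ccr10 and Ccr6) and the test of any difference 2 (Ccl6 and Cxcr4). The shares of all genes at that threshold were 14.3%, 9.22%, 16.9%, 5.46%, 7.48% and 17.9%, in the order given, and 9.10% were lower at that threshold with the diet in the knockout. DESeq2 called 0 of the family with the diet in the knockout, where it called 4.26% of all genes and gave Ccl6 no adjusted p. In the test of any difference Ccl6 was called by edgeR without a filter and by DESeq2, in fits that called 1.04% and 6.29% of all genes, and by edgeR without KC888LL and without KC935LL, in fits that called 6.58% and 0.756%.

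In KO-SD against WT-SD, 12 of the 15 were higher and 3 lower, with a median log2 fold change of 0.32 against 0.00 over all tested genes, of which 51.1% were higher. With the diet in the knockout 4 were higher and 11 lower, with a median of -0.17 against 0.01 over all tested genes, of which 48.5% were lower. Without KC872RL and KC873RR 3 of the 15 were higher and 12 lower in KO-SD against WT-SD (median -0.10, with 51.2% of all genes lower), and 7 were higher and 8 lower in KO-KD against KO-SD (median -0.02, with 47.8% of all genes lower). KO-SD then held only KC893RL and KC888LL, the library with 82.0 CPM of Kcna1. Single libraries also moved these values. In KO-SD against WT-SD the median was 0.12 without KC873RR and 0.19 without KC872RL. It rose to 0.41 without KC888LL, with 12 higher and 3 lower. For KO-KD against KO-SD it was -0.42 without KC913RR, with 6 higher and 9 lower, -0.10 without KC872RL and -0.11 without KC873RR. The comparisons share the KO-SD libraries. In KO-KD against WT-KD 5 were higher and 10 lower (median -0.13), where 49% of all genes were lower, and the median was -0.09 without KC913RR and -0.23 without KC846L. In WT-KD against WT-SD 9 were higher and 6 lower (median 0.06), where 49.9% of all genes were higher, and the median ranged from 0.01 to 0.07 without 1 library. Genes that passed the filter through a high group had to differ, so these counts only describe the 15 genes.

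**Figure D4:**
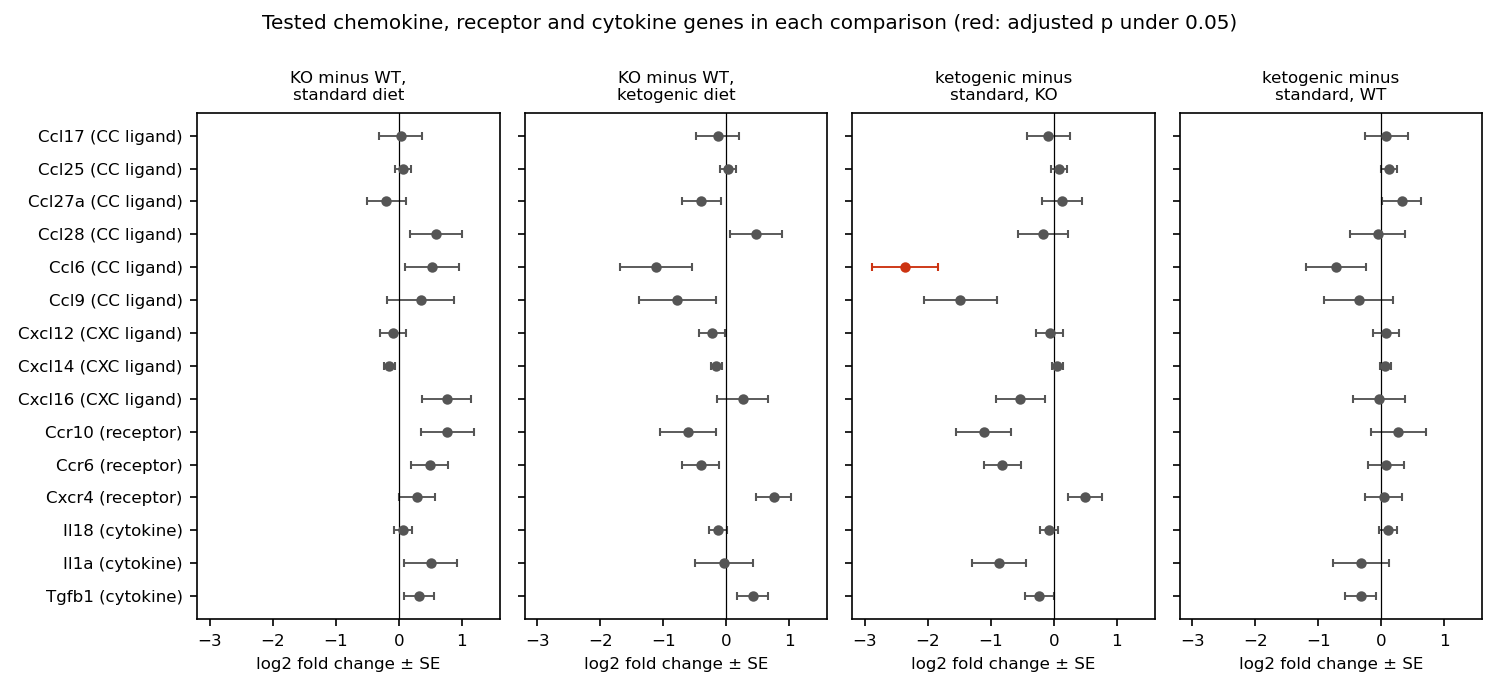
Log2 fold changes with their SE (horizontal axes) of the 15 tested genes, labelled with their class, in the 4 pairwise comparisons (KO, knockout; WT, wild type). Ccl6 with the ketogenic diet in the knockout, at -2.36 and drawn in red, is the 1 value with an adjusted p under 0.05.

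The 50 rows under the minimum included 26 CC ligand rows, 10 CXC ligand rows, 11 receptor rows and 3 cytokines. The inflammatory CC ligands Ccl3 and Ccl4 were found mainly in the pair of libraries with high microglia sums. Ccl3 had 19 counts in KC872RL and 17 in KC873RR, 3 in KC894RLL, 1 each in KC843RL and KC846L, and 0 in the other 11 libraries. The levels by total count were 0.986 CPM in KC872RL (exact 95% Poisson interval 0.594 to 1.54) and 1.01 CPM in KC873RR (0.589 to 1.62). In the 11 libraries at 0 the upper bound of the same interval was 0.188 to 0.274 CPM. Intervals cover counting error only, not the spread between libraries. Ccl4 had 6 counts in KC872RL and 4 in KC873RR, and at most 2 elsewhere.

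Cxcl10, an interferon-induced ligand of Cxcr3, had 11 counts in KC872RL and 9 in KC873RR, and at most 4 in any other library. Ccr2, the monocyte receptor for Ccl2, had 15 counts in KC872RL, 7 in KC873RR and at most 9 in any other library. Tnf had 6 counts in KC872RL and at most 2 elsewhere. Ccl12, a monocyte-attracting ligand of Ccr2, had another pattern, with 20 counts in KC913RR, 6 in each of KC872RL, KC873RR and KC843RL, and at most 4 in the others. These genes were chosen after their values were seen.

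Summed over all 50 rows under the minimum, KC872RL held 132 counts, KC873RR 84, KC913RR 57, KC888LL 51 and KC893RL 41. The 8 wild type libraries held 20 to 45 and the remaining 3 KO-KD libraries 13 to 28. As levels these were 6.85 CPM in KC872RL (exact 95% Poisson interval 5.73 to 8.13) and 4.99 CPM in KC873RR (3.98 to 6.18). KC913RR held 3.72 CPM (2.82 to 4.82), and the wild type libraries 1.08 to 2.49 CPM. The intervals of KC872RL and KC873RR lay above all wild type intervals, of which the highest upper bound was 3.43 CPM.

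**Figure D5:**
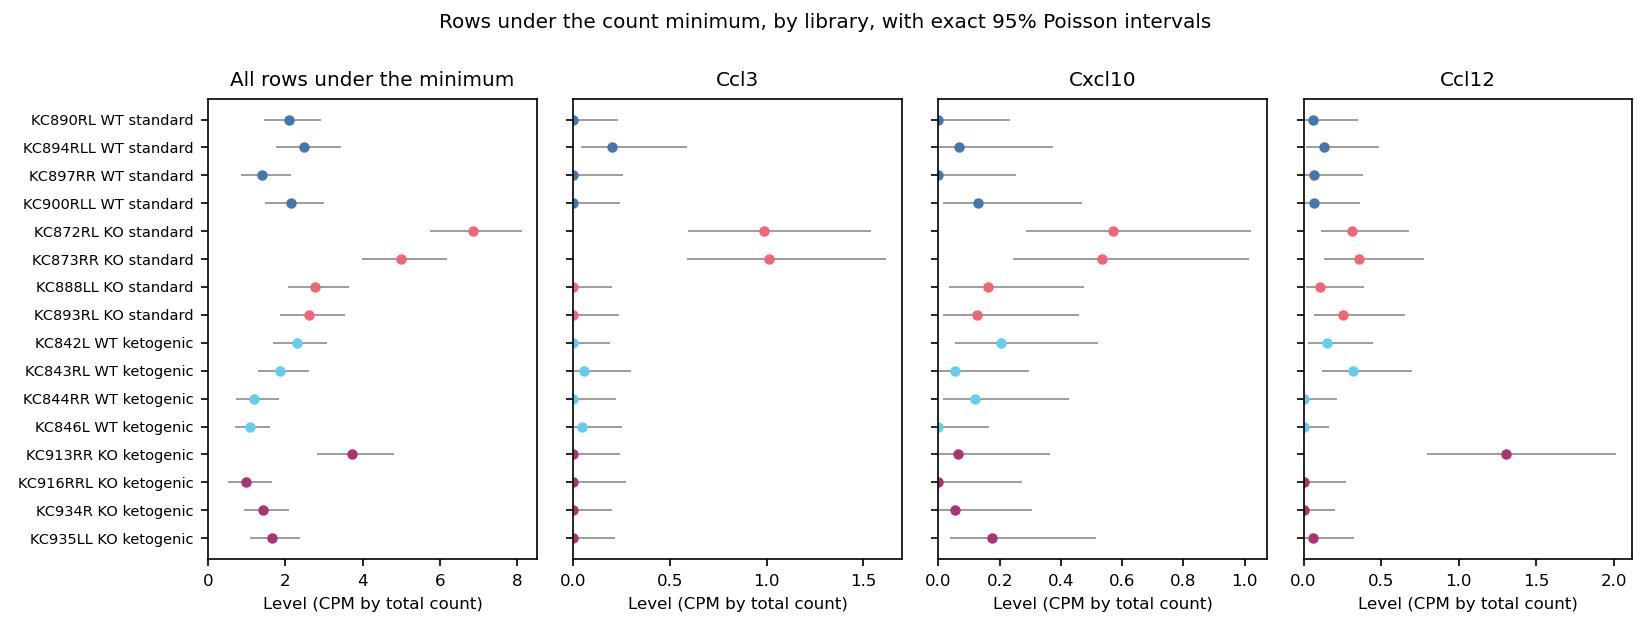
Level in CPM by total count (horizontal axes) in each library of the 50 rows under the count minimum summed, and of Ccl3, Cxcl10 and Ccl12, with exact 95% Poisson intervals. KC872RL and KC873RR are highest for the sum, Ccl3 and Cxcl10, and KC913RR is highest for Ccl12.

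Markers of infiltrating cells were low in all libraries. The sums of 8 T cell, 6 neutrophil and 5 monocyte markers were at most 3.35, 1.03 and 3.17 CPM, and KC872RL and KC873RR lay at or below the highest of the other 14 libraries for T cell and neutrophil markers. KC872RL had the highest monocyte sum, 3.17 CPM against at most 2.92 CPM in those 14, and KC873RR the highest sum of 5 B cell markers, 5.94 CPM against at most 4.47 CPM. The 6 markers of border-associated macrophages summed to 6.49 CPM in KC872RL and 6.93 CPM in KC873RR, and to 2.19 to 6.28 CPM in the others. The astrocyte marker Gfap was at 2327 CPM in KC872RL, 1340 CPM in KC873RR and 2018 CPM in KC913RR, and at 288 to 1059 CPM elsewhere. KC913RR thus shared high Gfap and Tgfb1 with that pair but held 283 CPM of microglia markers. Their part in the chemokine levels was not tested.

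Other genes of the pathway gave no call among 44 tested of 52 listed in any of the 6 comparisons. At an unadjusted p under 0.05 there were 10 in KO-SD against WT-SD, 7 in KO-KD against WT-KD, 9 with the diet in the knockout, 2 with it in wild type, 4 in the interaction and 14 in the test of any difference. The shares of all genes at that threshold were 14.3%, 9.22%, 16.9%, 5.46%, 7.48% and 17.9%, in the same order. Cx3cl1, the membrane-bound chemokine of neurons, was at 346 to 511 CPM. Its mean level per length was 108 CPM per kb, above the 47.8 of Cxcl14. Its receptor on microglia, Cx3cr1, measured 64.5 CPM in KC872RL and 67.6 CPM in KC873RR, and 29.8 to 41.1 CPM in the other 14 libraries. Pf4, a CXC ligand of platelets and macrophages, was at most 0.278 CPM. Dock2, which links chemokine receptors to the cytoskeleton, differed by 0.81 ± 0.26 (SE) in KO-SD against WT-SD and by -0.87 ± 0.26 (SE) in KO-KD against KO-SD (edgeR, adjusted p = 0.202 and 0.102). It measured 7.95 and 8.39 CPM in KC872RL and KC873RR and 2.41 to 4.48 CPM elsewhere, and without these 2 libraries the differences were 0.11 and -0.17.

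Among signalling genes of the cytokines, Socs3, an inhibitor induced by Il6-type cytokines, was at 18.3 CPM in KC913RR and at 0.455 to 3.67 CPM in the other 15 libraries. Its log2 difference of KO-KD against WT-KD was 2.67 ± 0.86 (SE) (edgeR, adjusted p = 0.417), and 0.64 without KC913RR (adjusted p = 0.796). Il6st, the shared signalling receptor of that family, measured 157 CPM in KC872RL, 127 CPM in KC873RR and 96.3 to 115 CPM elsewhere. It differed with the diet in the knockout by -0.27 ± 0.09 (SE) (edgeR, adjusted p = 0.136). The difference was -0.14 without KC872RL, -0.07 without KC872RL and KC873RR and -0.35 without KC888LL. Relb, an NF-kB subunit, was highest in KC913RR at 12.2 CPM and lowest in KC872RL at 3.72 CPM, and differed by 0.64 ± 0.21 (SE) in that comparison (edgeR, adjusted p = 0.133), and by 0.38 without KC913RR.

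On the Tgfb1 side, the receptor Tgfbr2 was at 22.2 CPM in KC872RL, 24.2 CPM in KC873RR and 17.0 CPM in KC913RR, and at 10.96 to 15.5 CPM in the others. The inhibitor Smad7 was at 16.3 to 23.1 CPM in KO-KD and at 23.4 to 28.3 CPM in WT-KD, without overlap. Its log2 difference there was -0.43 ± 0.12 (SE) (edgeR, adjusted p = 0.378), in a comparison in which 1.98% of all genes were lower without overlap. The signal transducer Smad2 differed with the diet in wild type by -0.26 ± 0.08 (SE) (edgeR, adjusted p = 0.761). Without KC888LL, 5 of these pathway genes were called in KO-SD against WT-SD (Cx3cl1, Tgfbr2, Dock2, Il6st and Smad7) and 6 with the diet in the knockout (Gnai2, Tgfbr2, Cx3cr1, Dock2, Il6st and Rac2). The shares of all genes called in those fits were 5.73% and 6.18%. Other fits called fewer pathway genes. With the diet in the knockout DESeq2 called 2 (Cx3cr1 and Dock2), where 4.26% of all genes were called, and edgeR without KC893RL called 3 (Tgfbr1, Cx3cr1 and Dock2), where 1.23% were. For any difference 5 were called without KC888LL, 1 without KC913RR, 1 without a filter and 2 by DESeq2, beside 6.58%, 0.766%, 1.04% and 6.29% of all genes. Of the chemokine and cytokine family, 0 and 2 (Ccl6 and Ccl9) were called without KC888LL in KO-SD against WT-SD and with the diet in the knockout.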

How the data were processed

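The authors deposited 1 table of raw counts per mouse Ensembl gene with 1 column per library. The submitters' processing notes name the build mm10 and DESeq2, and the aligner, counter, annotation and use of strand are not given in the sources used here. Column names give genotype and diet but no replicate number, so columns were assigned to groups only. For pairs of libraries within a group, the chi-square divided by the number of genes came to 3.86 or more, so none of these pairs was a duplicate.

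All genes were fitted with edgeR 4.0.16 (R 4.3.3, limma 3.58.1): filterByExpr left 17469 genes, TMM factors, robust quasi-likelihood dispersions, 1 coefficient per group, 12 residual degrees of freedom, two-sided tests, Benjamini-Hochberg adjustment over all tested genes, called at an adjusted p under 0.05. CPM used effective library sizes, and levels of rows under the minimum used total counts. Intervals of log2 differences were 95% with 12 degrees of freedom. The fit was tested on simulated data. Positions and exon lengths are from GENCODE M21 (GRCm38, as mm10), which held 67 of the 67 rows. Promoters are from RefSeq (GRCm38.p6), with entries for 14 of the 17 genes.

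A gene that the naming rule finds is not reported here and is left out of all counts of the family. The genes and lists were chosen with earlier results of these data known. Among genes reaching the count minimum, levels per library or group are given for those with a mean of at least 1 CPM. They are also given for those called or with an unadjusted p under 0.05 in any comparison, and for Il1a. Ccl25 and Ccl27a have ranges and group means only. Cx3cl1, Cx3cr1, Ackr3 and Pf4 were named whatever their values, and other pathway genes if called or among the 3 of smallest p under 0.01 in a comparison. Alternatives were 2 other scalings (DESeq2's and upper-quartile), no filter, a filter of 10 counts in at least 4 libraries, a prior count of 0.5, non-robust dispersions, DESeq2 1.42.0, limma-voom, fits to the compared groups alone, log2 CPM of Xist as a covariate, the libraries that had over 100 CPM of Xist with Ddx3y below 10 CPM, and each library left out in turn.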

Additional observations from a re-analysis of the deposited data

Results flagged for a closer look

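Tgfb1 in the knockout on the ketogenic diet was at 8.095 CPM in KC913RR and at 4.04 to 4.48 CPM in the other 3 libraries, so this library lay far from the rest of its group. It was the 1 such case in 68 groups of 4 libraries examined over the 17 genes, where chance alone marks about 5% of groups.

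In rows too sparse for a test between groups, 2 counts in a single library had a Poisson interval above those of all wild type libraries. These intervals leave out the spread between libraries, and the libraries were the highest of their rows, so the 2 cases are descriptions only. Ccl12 had 20 counts in KC913RR, with a lower 95% Poisson bound of 0.797 CPM against a highest wild type upper bound of 0.697 CPM. Ccl3 had 19 counts in KC872RL, with a lower bound of 0.594 CPM against a highest wild type upper bound of 0.589 CPM.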

How the results depend on the processing

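No paired analysis was possible because the columns carry no replicate number. The 1 call with the diet in the knockout became 0 with the Xist covariate and with only the libraries that express Xist and not Ddx3y. It also became 0 with only the groups compared, where Ccl6 failed the filter. Shares of all genes called are not given for these fits, so their counts describe the family alone. The count was also 0 without both KC872RL and KC873RR, where 0.0112% of all genes were called. That fit keeps the same knockout libraries as the selection by Xist and Ddx3y. Over fits without 1 library it ranged from 0 to 2 (2 without KC888LL, where 6.18% of all genes were called). DESeq2 called 0 genes and gave no adjusted p for Ccl6 (-2.40, unadjusted p = 6.5e-05). Calls for any difference were 1 without a filter and 1 by DESeq2 (Ccl6 in both, beside 1.04% and 6.29% of all genes), and ranged from 0 to 1 without 1 library. Of 44 pathway genes, 2 were called by DESeq2 with the diet in the knockout, where 4.26% of all genes were, so this count was near the background. For any difference 1 was called without a filter and 2 by DESeq2, beside the shares of all genes just given. Without 1 library they ranged from 0 to 5 between the genotypes on the standard diet, from 0 to 6 with the diet in the knockout and from 0 to 5 for any difference, each highest without KC888LL, where 5.73%, 6.18% and 6.58% of all genes were called.

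Of 1137 alternative log2 fold changes of the tested genes, 70 had the opposite sign. None was of a called value and none passed the threshold, and the cause was not tested. In KO-SD against WT-SD, the libraries with Xist and without Ddx3y gave -0.33 for Il1a, -0.05 for Tgfb1, -0.72 for Ccl17, -0.069 for Il18, -0.21 for Cxcl16, -0.43 for Ccl9 and -0.26 for Ccl6. Without both KC872RL and KC873RR the values were -0.15, -0.13, -0.50, -0.10, -0.29, -0.34 and -0.22, with -0.014 for Ccl25 and -0.021 for Ccr6. The Xist covariate gave -0.0049 for Ccl17 and -0.012 for Il18. With the diet in the knockout, the Xist covariate gave 0.028 for Tgfb1, 0.024 for Il18, 0.19 for Cxcl16 and -0.0017 for Cxcl14. The libraries with Xist and without Ddx3y gave 0.21, 0.078, 0.52 and -0.018 for these and 0.44 for Ccl17, and leaving out KC872RL and KC873RR gave 0.21, 0.077, 0.52, -0.018 and 0.44. Both fits use the same knockout libraries. Other opposite signs were 0.069 for Il1a (KO-KD against WT-KD, limma-voom), 0.021 for Ccl28 (diet in wild type, Xist covariate) and -0.0086 for Ccl17 (diet in wild type, libraries with Xist and without Ddx3y).

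Over fits without 1 library, ranges that crossed 0 were as follows. With the diet in wild type they were -0.058 to 0.10 for Cxcr4, -0.14 to 0.29 for Ccl17, -0.20 to 0.067 for Cxcl16, -0.27 to 0.073 for Ccl28 and -0.062 to 0.25 for Ccr6. With the diet in the knockout they were -0.089 to 0.27 for Ccl27a, -0.26 to 0.15 for Cxcl12, -0.25 to 0.15 for Ccl17, -0.19 to 0.074 for Il18, -0.0026 to 0.13 for Cxcl14 and -0.43 to 0.026 for Ccl28. Between the genotypes on the standard diet they were -0.36 to 0.22 for Ccl27a, -0.034 to 0.16 for Ccl25, -0.20 to 0.24 for Ccl17 and -0.0057 to 0.14 for Il18. On the ketogenic diet they were -0.31 to 0.36 for Il1a, -0.032 to 0.12 for Ccl25 and -0.24 to 0.028 for Il18. The 50 rows under the minimum held at most 20 counts in a library. The part of sequencing depth in these low counts was not tested.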
